A study of Drosophila melanogaster with 27 samples.

Results

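The maternal-to-zygotic transition of wild-type *Drosophila melanogaster* embryos was measured as the difference between 2 timed collections, taken at 2-3h and at 0-1h. Its members were the 6 libraries of unsorted embryos from *w* mothers, 3 at each stage, out of 27 libraries in the series. They were chosen by genotype and collection label, and not by any measured value. The 2-3h and the 0-1h embryos came from *w* flies, a white-eyed strain that served as wild type. A further 6 unsorted libraries, 3 at each of the same stages, came from mothers that lacked *nos* function, being *trans*-heterozygous for *nos* BN and the deficiency Df(3R)Exel6183. Another 3 *w* libraries came from methanol-fixed embryos picked by hand under a microscope at nuclear cycles 9 to 10, called cycle 9 here. All flies were kept at 25°C. The unsorted collections carry only a time label, with no sorting by stage, and no library separated cell types or single embryos.

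A fly egg is laid with a store of mRNAs made by the mother, and the first nuclear divisions run on that store while the embryo's own genome is nearly silent. During the transition many maternal mRNAs are destroyed and the zygotic genome is switched on, in a minor wave during the syncytial cycles and a major wave as the blastoderm forms cells. Known decay routes include the RNA-binding protein Smaug, which recruits the CCR4-NOT deadenylase, and the pioneer factor Zelda opens many of the early zygotic genes. All libraries were made from poly(A)-selected RNA, so that loss of an mRNA and shortening of its poly(A) tail cannot be told apart in them. A level is likewise a share of the mRNA of whole embryos, and fewer cells of a type cannot be told apart from less RNA per cell. Levels below are given in TPM (transcripts-per-million, a length-scaled share of all mRNA), and fold changes come from read counts. A gene was called higher or lower when it differed by more than 2-fold at an adjusted p under 0.05. The adjusted p is Benjamini-Hochberg corrected over all genes, from edgeR's quasi-likelihood test, and SE is the standard error of the log2 fold change.

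The 2-3h libraries held 16213180, 17478935 and 18008757 counts in all, and the 0-1h libraries 21050266, 18749050 and 16179237. Every pair of replicates differed by more than counting noise (chi-square over degrees of freedom 12.32 or more), so that no library had been deposited as a copy. The labels do not say whether replicates were separate collections, so the p-values measure the spread between these samples, which may be technical. Genotype was as labelled, since *nos* mRNA stood at 1.23, 0.87 and 1.28 TPM in the 2-3h *nos* libraries and at 0.12, 0.30 and 0.43 TPM in the 0-1h ones, against 30.96 TPM or more in every *w* library.

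Transcripts of later stages were present in the unsorted *w* libraries, at both stages, and nearly absent from the sorted ones. The 5 muscle genes summed to 252, 210 and 289 TPM in the 2-3h libraries, against 141, 50.9 and 227 TPM in the 0-1h libraries, and to at most 1.44 TPM at cycle 9. The 5 cuticle genes summed to 24.0, 4.47 and 9.97 TPM at 2-3h, against 2.29, 0.64 and 3.74 TPM at 0-1h. The Jonah and Try serine proteases, digestive enzymes listed after their values had been seen, summed to 486, 1366 and 1225 TPM at 2-3h, against 419, 363 and 1880 TPM at 0-1h, and to at most 0.88 TPM at cycle 9. Among the 0-1h libraries replicate 3 held the most of the muscle genes and the proteases, and among the 2-3h libraries replicate 1 held the most of the cuticle genes. Germ plasm mRNAs, which mark the embryos as early, were all detected at each stage. The 11 eggshell and follicle cell genes summed to no more than 1.84 TPM in any of the 6 libraries, with 8 to 11 of them at 0, so ovary tissue was at or near the limit of detection. Without 0-1h replicate 3 and 2-3h replicate 1 together, a setting chosen after seeing the data, 1678 genes were higher and 2255 lower at 2-3h, against 1444 and 2144 with all libraries.

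Blastoderm genes too were present at 0-1h and nearly absent at cycle 9. Over 39 zygotic patterning and cellularization genes of at least 10 TPM at 2-3h, the median 0-1h level was 6.76, 6.2 and 6.15% of the 2-3h mean in the 3 libraries, with single genes between 3.84 and 26.8%. The cycle 9 libraries, whose embryos had passed more nuclear cycles than a 0-1h collection is timed to hold, held 0.489, 0.147 and 0.439% of it. Log2 fold changes of these 39 genes ran between 2.5 and 4.82, with quartiles of 4.07, 4.34 and 4.52, while their 2-3h levels ranged from 10 to 1294 TPM. Each fold change of a zygotic gene below is set against that 0-1h level. Whether older embryos in the 0-1h collections account for it was not tested.

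**Figure D1:**
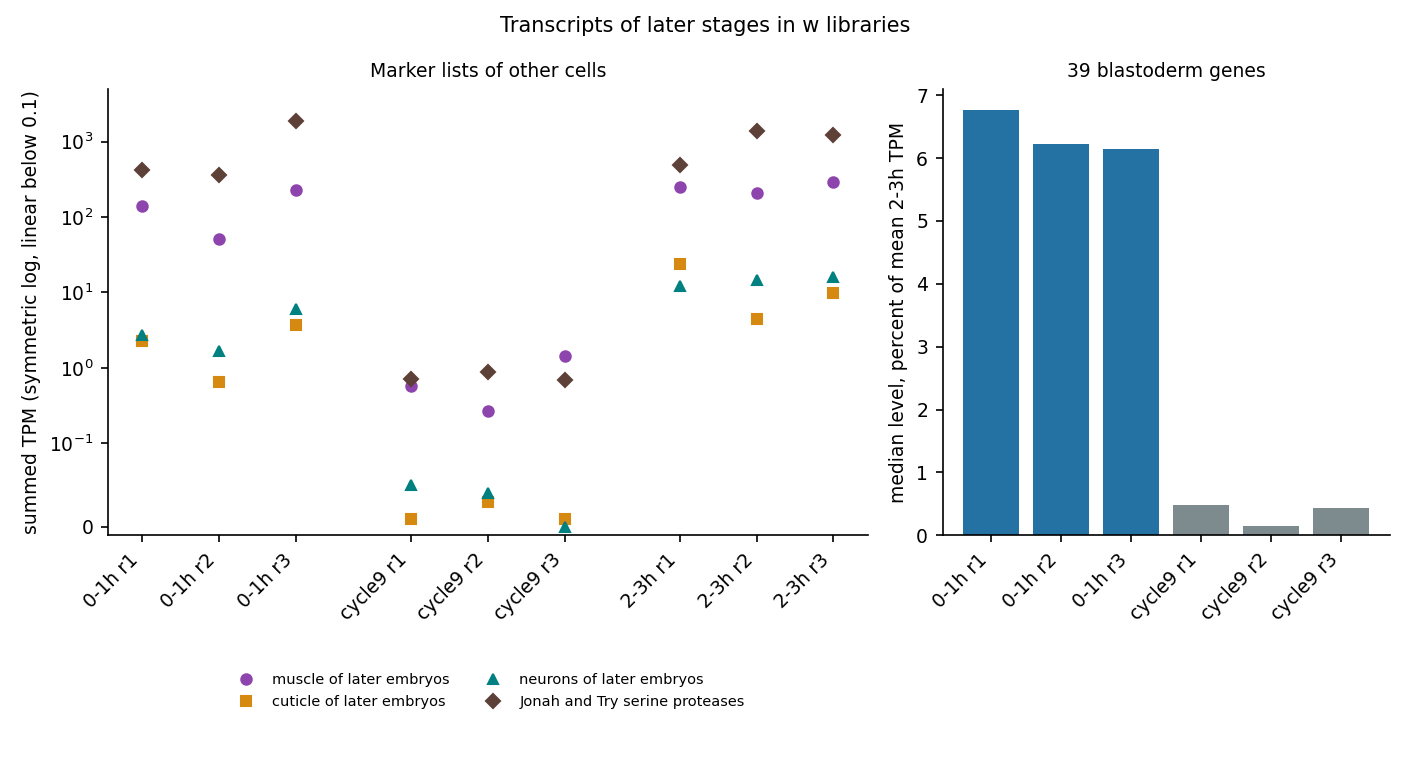
Transcripts of later stages in the 9 *w* libraries (r1 to r3 are replicates), in order of stage. Left, the summed TPM of each marker list on a symmetric log axis that is linear below 0.1, where the cycle 9 libraries sit at or under 1.44 TPM and all unsorted libraries of the muscle list at 50.9 TPM or more. Right, bars give the median level of 39 blastoderm genes as a percent of their mean 2-3h TPM, between 6.15 and 6.76% at 0-1h and under 0.5% at cycle 9.

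Of 8445 genes tested, 1444 were higher at 2-3h (17.1%) and 2144 lower (25.4%). The groups did not overlap for 1372 of the genes called higher and for 2143 of those called lower. Genes that fell held 3.78, 3.39 and 3.24% of all TPM in the 2-3h libraries, against 22.15, 21.71 and 20.17% in the 0-1h libraries. Genes that rose held 14.4, 14.9 and 15.93% at 2-3h, against 6.81, 6.34 and 6.15% at 0-1h. No 2-3h library came near a 0-1h one in either sum. These sums are over genes picked by the same test and describe it only. The median gene stood at 0.25 on the log2 scale, so that a gene with no change relative to the bulk of genes has a small positive value. Relative to this scaling, holding the ribosomal protein genes level moved the median by −0.85 and gave 809 genes higher and 3336 lower. A limma-trend fit on log2(TPM + 1) moved it by −0.38 and gave 713 higher and 2625 lower. The share of calls that were higher was 40.2% as reported, 19.5% on the ribosomal protein scaling and 21.4% with limma-trend. Absolute loss or gain per embryo therefore depends on a scaling that these files do not fix.

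The sorted cycle 9 libraries, which took no part in the test, were used to divide the genes. Genes at 2 CPM (counts-per-million of the library total) or more in each of the 3 cycle 9 libraries were called maternal, and those under 0.5 CPM in each were called absent at cycle 9. Of 6599 maternal genes 6589 were tested, and 2113 of them fell (32.1%, against 25.4% of all genes) while 466 rose (7.07%, against 17.1%). Of the maternal genes that fell, 1078 fell more than 4-fold, 164 more than 16-fold and 25 more than 64-fold. Their median log2 fold change was −2.03. The 466 that rose did so less far, with a median of 1.17 and only 61 over 4-fold. The limit does not separate mRNA from the mother from early zygotic mRNA. Of the 466, 56 are on a list of zygotic genes used below. Among the 466 are *Sry-alpha*, *bnk*, *dunk*, *nullo*, *sisA* and *sna*, at log2 values between 3.39 and 4.46. Maternal genes held 96.64, 95.86 and 95.29% of all counts at 2-3h, against 99.48, 99.51 and 98.94% at 0-1h.

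Of 10552 genes absent at cycle 9, 1499 passed the filter on low counts. Most of those could pass only through 2-3h libraries, of *w* or of *nos*, so their count is a description and no support for a rise. Among them 807 were higher at 2-3h and 6 lower, with 714 higher by more than 4-fold and 236 by more than 16-fold. In a fit of the 6 *w* libraries alone 614 were higher and 4 lower. A further 357 tested genes lay between the 2 limits, of which 171 rose and 25 fell. The count of maternal genes that rose changed with the scaling, to 239 on library totals and 67 on the ribosomal protein scaling. It was 250 in a fit of the 6 *w* libraries alone, which also changes the filter and the spread, and 115 with limma-trend, which also changes the unit and the test. It was 280 without 2-3h replicate 2 and 195 without 2-3h replicate 3.

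**Figure D2:**
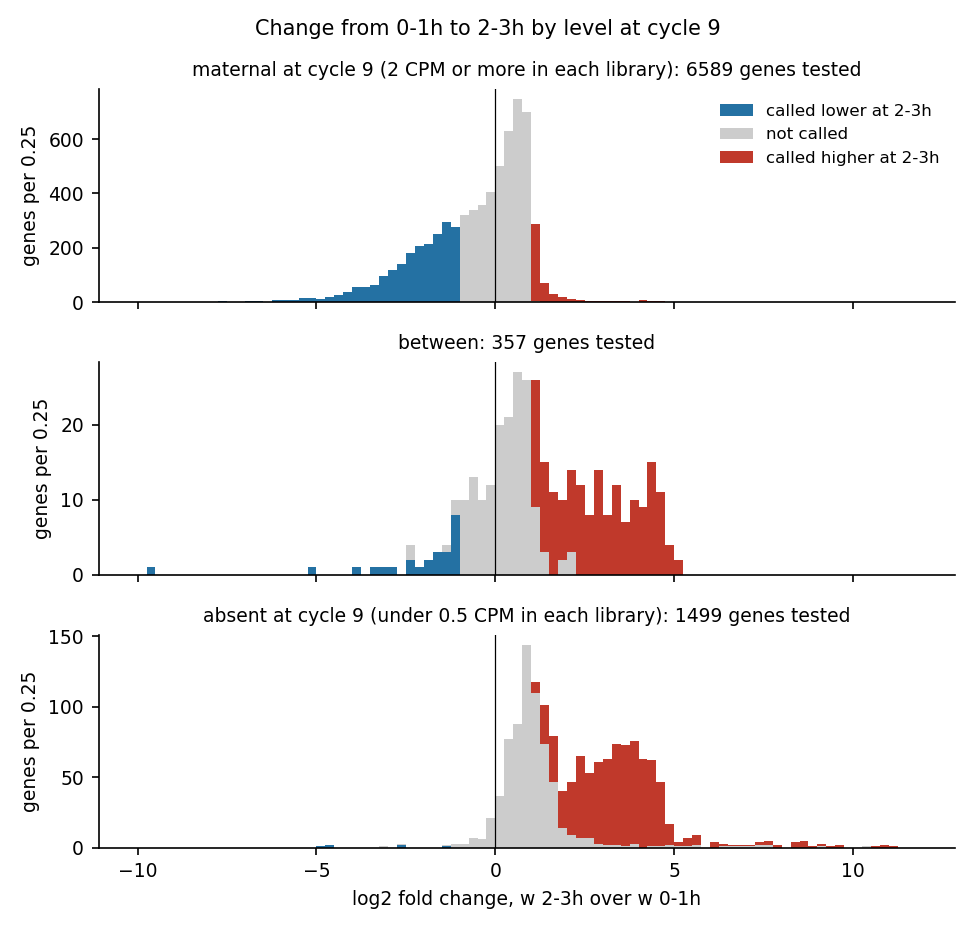
Histograms of the log2 fold change of 2-3h over 0-1h embryos (x axis) as genes per bin of 0.25 (y axis, a scale of its own in each panel), for genes maternal at cycle 9 (6589), between the limits (357) and absent at cycle 9 (1499), stacked by call. Maternal genes form a long tail to the left, with 2113 called lower, and genes absent at cycle 9 a hump to the right, with 807 called higher.

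The most abundant mRNA to fall was that of *dhd* (FBgn0011761, X chromosome), a maternal thioredoxin that acts on sperm chromatin after fertilisation. It stood at 82.6, 46.8 and 42.3 TPM in 2-3h embryos, against 5939.6, 7432 and 6541 TPM in 0-1h embryos, a log2 fold change of −6.48 (SE 0.28, adjusted p = 5.42e-09). No 2-3h library held more than 0.008% of its mRNA as *dhd*, against at least 0.594% in each 0-1h library. At cycle 9 the level was 2804, 4029 and 2744 TPM, so that much of it was still present in the hand-picked embryos. The unnamed gene *CG6770* stood at 44.1, 37.5 and 29.0 TPM at 2-3h, against 2205, 2688 and 2636 TPM at 0-1h (log2 −5.70, SE 0.23).

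Chaperone mRNAs were also among the most abundant to fall, and they fell to different depths. *Hsp26*, a small heat shock protein whose maternal mRNA is enriched in germ plasm, stood at 62.3, 48.4 and 43.9 TPM at 2-3h, against 2387, 2580.0 and 2275 TPM at 0-1h (log2 −5.15, SE 0.27). *Hsp83*, the fly Hsp90 and a classic substrate of Smaug, stood at 149, 129 and 126 TPM at 2-3h, against 2266, 1981 and 1763 TPM at 0-1h (log2 −3.48, SE 0.18), so that 8.96% was left. *Cyp1*, a cyclophilin, kept more, at 383, 483 and 431 TPM against 1871, 2028 and 1887 TPM at 0-1h, or 29.9%. The groups did not overlap for any of these genes.

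The deepest falls, ranked among genes of at least 10 TPM at 0-1h, took mRNAs to 4.22 TPM or less in each 2-3h library. Their counts over the 2-3h libraries ran from 7 for *CG9926* to 636 for *yl*. *Cyp6a19*, a cytochrome P450, was at 1.49, 0.42 and 0.35 TPM in 2-3h embryos, against 427, 501 and 442 TPM in 0-1h embryos (log2 −8.90, SE 0.37, adjusted p = 4.35e-09), or 0.209% left. *Mos*, a meiotic kinase of the oocyte, was at 0.75, 0.16 and 0.26 TPM at 2-3h, against 87.5, 93.2 and 83.4 TPM at 0-1h (log2 −7.44, SE 0.36). *yl*, the receptor through which the oocyte takes up yolk protein, was at 4.22, 1.55 and 1.18 TPM at 2-3h, against 526, 362 and 324 TPM at 0-1h (log2 −7.07, SE 0.48). The peptide transporter *yin* was at 2.61, 0.98 and 1.11 TPM at 2-3h, against 266, 266 and 244 TPM at 0-1h (log2 −7.00, SE 0.33). In each of these, 2-3h replicate 1 held the most of what was left. The same was true of *CG4476* (log2 −8.57), *CG9926* (log2 −7.66), *CG6927* (log2 −7.61) and *CG4991* (log2 −7.51), which made up the 8 deepest falls with the 4 above.

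The maternal genes that set up the body axes did not fall together. Of 15 tested axis determinants 8 fell (53.3%, against 25.4% of all genes and 32.1% of maternal genes) and 1 rose. The median was −1.04, where all genes had 0.25 and maternal genes −0.14. *osk*, which nucleates the germ plasm, stood at 14.5, 7.68 and 4.36 TPM at 2-3h, against 546, 528 and 591 TPM at 0-1h (log2 −5.59, SE 0.35, adjusted p = 5.54e-08). *nos*, the posterior determinant, stood at 42.0, 31.0 and 31.1 TPM at 2-3h, against 396, 409 and 381 TPM at 0-1h (log2 −3.10, SE 0.14), leaving 11.7%. The anterior determinant *bcd* was not called, at 91.2, 61.4 and 42.3 TPM in 2-3h embryos against 132, 118 and 119 TPM in 0-1h embryos (log2 −0.53, SE 0.18, adjusted p = 0.0188). Its groups did not overlap, but the difference stayed within 2-fold except on the ribosomal protein scaling (log2 −1.36).

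The dorsoventral and terminal systems had members on both sides as well. *dl*, which encodes the maternal dorsoventral morphogen, stood at 3.63, 2.16 and 1.45 TPM at 2-3h, against 87.9, 80.1 and 75.9 TPM at 0-1h (log2 −4.56, SE 0.27). *trk*, the ligand precursor of the terminal system, fell by 3.78 on the log2 scale (SE 0.40). The member that rose was *pip*, a sulfotransferase of the follicle cells, at 2.39, 1.47 and 1.16 TPM at 2-3h against 0.15, 0.15 and 0.82 TPM at 0-1h (log2 2.49, SE 0.77). It was listed at 0 in all 3 cycle 9 libraries, so it was no maternal mRNA by the limit used here. It was not called with limma-trend or on the ribosomal protein scaling.

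Germ plasm mRNAs fell in 7 of 9 tested members (77.8%, against 32.1% of all maternal genes), with a median of −2.61. *vas*, a DEAD-box helicase of the germ line, stood at 10.7, 6.94 and 6.43 TPM at 2-3h, against 228, 206 and 183 TPM at 0-1h (log2 −4.28, SE 0.18). *pgc*, which silences transcription in the pole cells, stood at 81.9, 69.2 and 60.6 TPM at 2-3h, against 792, 952 and 959 TPM at 0-1h (log2 −3.27, SE 0.20). *piwi*, an Argonaute protein of the germ line, stood at 20.2, 18.2 and 13.7 TPM at 2-3h, against 142, 137 and 144 TPM at 0-1h (log2 −2.61, SE 0.12). Smaller falls were seen for the germ granule scaffold *tud* (log2 −2.33, SE 0.10) and for *gcl* (log2 −1.86, SE 0.21), which is needed for pole cell formation. *CycB*, whose mRNA is both throughout the embryo and in the pole plasm, stood at 1057, 769.7 and 629 TPM at 2-3h, against 2268, 2059 and 2084 TPM at 0-1h, and at log2 −0.98 just missed the 2-fold limit. In 13 of the 16 alternative settings it passed that limit. Whole-embryo RNA does not separate the pole cells from the soma.

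Genes of meiosis and egg activation fell in 4 of 8 members (50%, against 32.1% of all maternal genes), and in 5 under the other scalings. *cort*, a meiotic activator of the anaphase-promoting complex, stood at 1.48, 1.81 and 1.43 TPM at 2-3h, against 89.8, 98.1 and 80.9 TPM at 0-1h (log2 −5.37, SE 0.18, adjusted p = 2.22e-09). The Pan gu kinase unlocks translation of maternal mRNAs at egg activation. The mRNAs of its catalytic subunit *png* and its activating subunit *gnu* fell, while that of its subunit *plu* was not called (log2 −0.13). Protein was not measured. *png* stood at 11.5, 5.76 and 6.66 TPM at 2-3h, against 189, 195 and 153 TPM at 0-1h (log2 −4.10, SE 0.24). *gnu* stood at 48.0, 30.8 and 22.7 TPM at 2-3h, against 505, 585 and 554 TPM at 0-1h (log2 −3.63, SE 0.25), and was at 994, 1064 and 915 TPM at cycle 9. *mtrm*, an inhibitor of Polo kinase in the oocyte, fell by 3.73 on the log2 scale (SE 0.26). The other 4 members were not called, with log2 values between −1.0 and −0.04.

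Among 12 maternal repressors and decay factors 4 fell (33.3%, against 32.1% of all maternal genes) and none rose. *bru1*, which represses *osk* translation in the oocyte, stood at 43.5, 21.6 and 14.97 TPM at 2-3h, against 803, 703 and 699 TPM at 0-1h (log2 −4.36, SE 0.35). *twin*, the CCR4 deadenylase, stood at 59.4, 45.8 and 38.9 TPM at 2-3h, against 227, 197 and 187 TPM at 0-1h (log2 −1.60, SE 0.12). The maternal repressors *brat* and *pum* differed. *brat* stood at 62.6, 48.1 and 43.0 TPM at 2-3h, against 226, 169 and 167 TPM at 0-1h (log2 −1.22, SE 0.12), while *pum* was not called, at 121, 90.9 and 70.1 TPM against 128, 89.5 and 99.3 TPM at 0-1h (log2 0.24, SE 0.15, adjusted p = 0.1746). *smg* itself was just short of the limit, at 402, 269 and 198 TPM at 2-3h against 806, 649.9 and 690.4 TPM at 0-1h (log2 −0.91, SE 0.17). It was called lower in 8 of the 16 alternative settings, among them without 2-3h replicate 1 (log2 −1.17) and without 2-3h replicate 2 (log2 −1.01). On library totals 6 of the 12 were lower, with limma-trend 8 and on the ribosomal protein scaling 9.

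Cell cycle genes included the checkpoint kinases that slow the last syncytial divisions. Of 17 members 7 fell (41.2%, against 32.1% of all maternal genes), or 11 on the ribosomal protein scaling, and *aurB*, the mitotic Aurora kinase, was the only one called higher, at a log2 of 1.0 (SE 0.09), a call that was lost in 12 of 16 alternative settings. *lok*, the fly Chk2, stood at 67.2, 54.2 and 49.0 TPM at 2-3h, against 391, 399.8 and 378 TPM at 0-1h (log2 −2.37, SE 0.09, adjusted p = 3.71e-09). *grp*, the fly Chk1, stood at 120.2, 88.1 and 74.5 TPM at 2-3h, against 463, 443 and 408 TPM at 0-1h (log2 −1.75, SE 0.14). *mei-41*, the fly ATR, fell by 2.15 (SE 0.15). *stg*, the Cdc25 phosphatase whose maternal mRNA is lost before patterned zygotic expression begins, stood at 156, 111 and 105 TPM at 2-3h, against 370.2, 338 and 347 TPM at 0-1h (log2 −1.10, SE 0.12). *Cdk2* fell by 1.67 (SE 0.10), while *Cdk1* was not called, at a log2 of 0.84.

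Among tubulin genes, the maternal *alphaTub67C* and *gammaTub37C* fell, and the general *alphaTub84B* did not. *alphaTub67C*, the maternal alpha-tubulin, stood at 10.6, 7.15 and 5.19 TPM at 2-3h, against 705, 721 and 618 TPM at 0-1h (log2 −6.09, SE 0.32, adjusted p = 1.38e-08). The general alpha-tubulin *alphaTub84B* stood at 3115, 3348 and 3402 TPM at 2-3h, against 2096, 1834 and 1786 TPM at 0-1h (log2 1.21, SE 0.08). *gammaTub37C*, the maternal gamma-tubulin, stood at 3.52, 4.41 and 2.92 TPM at 2-3h, against 184, 199 and 169 TPM at 0-1h (log2 −5.26, SE 0.19). Among linker and variant histones, *BigH1*, the embryonic linker histone that is replaced when zygotic transcription begins, stood at 219.8, 167 and 127 TPM at 2-3h, against 656, 699.7 and 700.2 TPM at 0-1h (log2 −1.60, SE 0.15). The variants *His2Av*, *His3.3A* and *His3.3B* were higher, at log2 1.07, 1.3 and 1.09, and none of them was called on the ribosomal protein scaling or with limma-trend. *His2Av* and *His3.3B* were also not called on library totals, with no filter, in the fit of the 6 *w* libraries, without 2-3h replicate 2 (log2 0.95 and 0.96) or without 2-3h replicate 3 (log2 0.85 and 0.87). *alphaTub84B* was not called on the ribosomal protein scaling (log2 0.35), with limma-trend (log2 0.79) or without 2-3h replicate 3 (log2 0.98). Paralogous tubulins and histones share sequence, so their split between copies rests on the authors' assignment of reads.

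Metabolic and constitutive genes gave the background to these falls. *Gapdh2* stood at 39.6, 57.6 and 56.3 TPM at 2-3h, against 1814, 1882 and 1712 TPM at 0-1h (log2 −4.72, SE 0.27), and *Gapdh1*, its paralog in glycolysis, fell by 2.66 (SE 0.13). None of 14 proteasome subunits was called by edgeR, with log2 values between 0.06 and 0.81 and a median of 0.65 that became −0.20 on the ribosomal protein scaling. Of 85 tested cytosolic ribosomal protein genes 4 were called higher by edgeR (4.71%, against 17.1% of all genes), at a median of 0.86. The count was 0 on library totals, on the ribosomal protein scaling, with limma-trend and in the fit of the 6 *w* libraries.

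For the mRNAs that fell, the median level at cycle 9 lay between those of the unsorted collections. Over the 2113 maternal genes that fell, the median level was 68.7% of the 0-1h TPM at cycle 9 and 18.3% at 2-3h. Over maternal genes with no call these were 94.5% and 91.6%, and over those that rose 74.7% and 168%. The genes were grouped by the 2-3h comparison, so these values describe the course and test nothing. Single genes differed in their level at cycle 9. *yl* stood lower there than at 0-1h, at 21.7, 40.7 and 54.1 TPM, whereas *Mos* stood near its 0-1h level, at 68.6, 97.4 and 80.05 TPM. *pum*, which was not called between the unsorted stages, was also low at cycle 9, at 11.8, 20.4 and 39.0 TPM. A low level at cycle 9 therefore need not be a fall with time. *gnu*, *pgc* and *BigH1* stood higher at cycle 9 than at 0-1h in all 3 libraries. The sorted embryos were fixed in methanol and rehydrated before RNA extraction. The labels give every sample the same extraction text, which speaks of sorted embryos, so how the 0-1h and 2-3h embryos were handled is not certain, and handling and stage cannot be told apart between them.

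**Figure D3:**
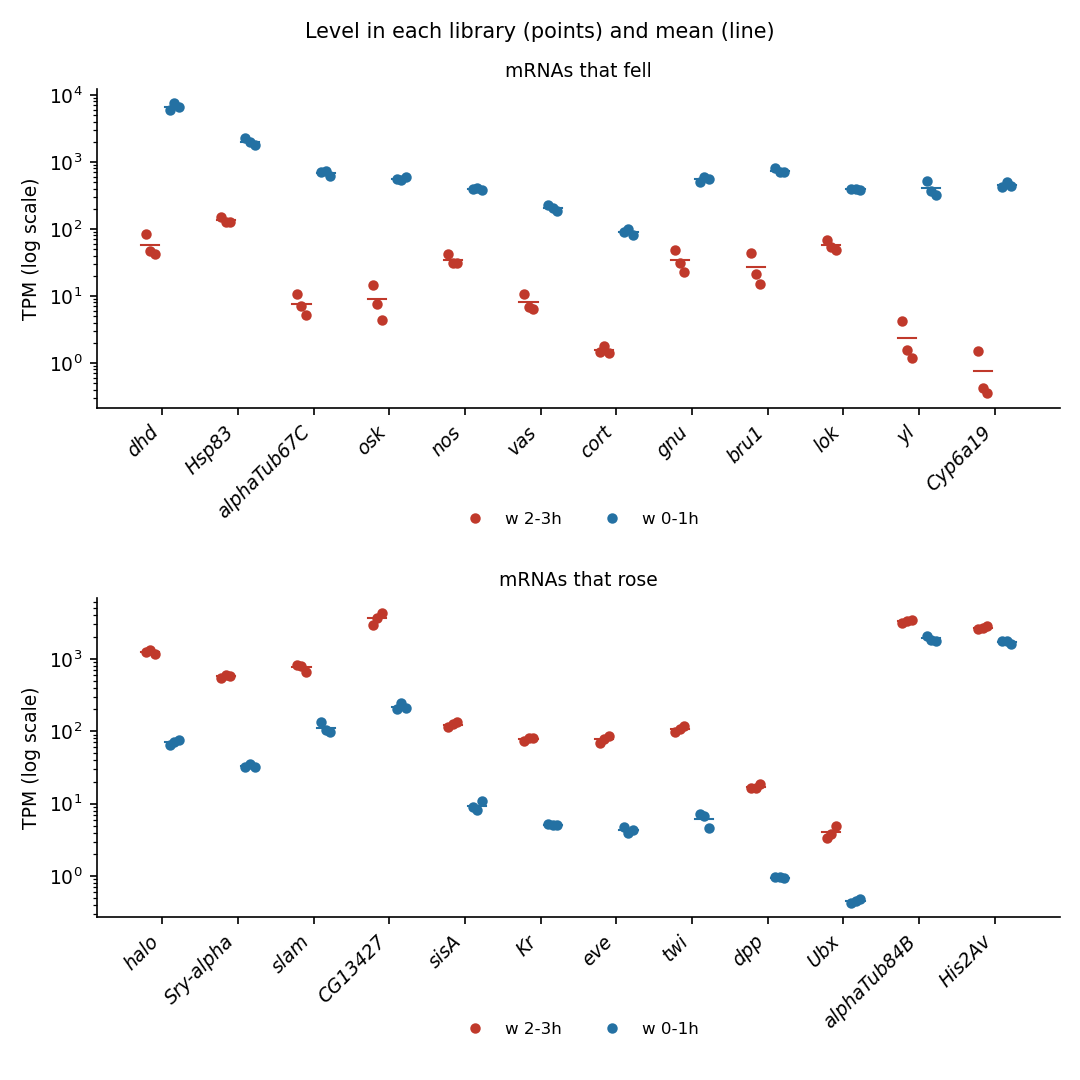
TPM on a log axis for 12 mRNAs that fell (top) and 12 that rose (bottom), with a point for each library and a line at the mean of 3, 2-3h in red to the left of 0-1h in blue. No gene shown has overlapping stages. *dhd* averaged 57.2 TPM at 2-3h and 6638 TPM at 0-1h, and the rises of *alphaTub84B* and *His2Av* are small beside those of the zygotic genes.

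Zygotic genes that build the cellular blastoderm all rose, 8 of 8 (100%, against 17.1% of all genes), with a median of 4.25. *halo*, which directs lipid droplets during cellularization, stood at 1252, 1336 and 1170.3 TPM in 2-3h embryos, against 64.4, 71.7 and 75.6 TPM in 0-1h embryos (log2 4.55, SE 0.28, adjusted p = 3.99e-08). *Sry-alpha*, a component of the actin network at the furrow canals, stood at 545, 598 and 578 TPM at 2-3h, against 31.8, 35.5 and 31.7 TPM at 0-1h (log2 4.46, SE 0.27). *bnk*, which keeps the actin rings from closing early, stood at 718, 686 and 601 TPM at 2-3h, against 45.3, 35.8 and 52.0 TPM at 0-1h (log2 4.32, SE 0.19). *nullo*, which stabilises the basal junctions of the furrow, rose less, at 172, 137 and 114 TPM against 14.6, 10.6 and 28.7 TPM at 0-1h (log2 3.39, SE 0.34). *dunk*, which acts on cortical myosin, rose by a log2 of 4.17 (SE 0.22).

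The mitotic brakes and *slam* belonged to the same list. *Z600*, an inhibitor of mitotic entry, stood at 1193, 1345 and 1344 TPM at 2-3h, against 60.6, 70.3 and 49.7 TPM at 0-1h (log2 4.82, SE 0.43), the largest change of the list. *trbl*, which promotes loss of String protein, stood at 154, 162 and 165 TPM at 2-3h, against 42.9, 36.2 and 34.9 TPM at 0-1h (log2 2.5, SE 0.13). It was also present at cycle 9, at 21.3, 22.7 and 23.6 TPM. *slam*, which marks the site of the furrow, stood at 830.3, 789.5 and 666 TPM at 2-3h, against 133, 104 and 99.2 TPM at 0-1h (log2 3.15, SE 0.17), with 28.0, 26.1 and 49.2 TPM at cycle 9. These 2 genes had the smallest rises of the list and were its only members at 21.3 TPM or more in all 3 cycle 9 libraries.

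Of 5 tested X-linked genes of the sex signal 4 rose (80%, against 17.1% of all genes), and these 4 were the elements that count X chromosomes. *sisA*, a bZIP factor, stood at 114, 125 and 132 TPM at 2-3h, against 8.93, 8.24 and 10.8 TPM at 0-1h (log2 4.14, SE 0.17, adjusted p = 3.71e-09). It was as high at cycle 9, at 10.4, 6.81 and 9.41 TPM, as at 0-1h, unlike the gap genes. *sc*, a bHLH factor, stood at 26.7, 16.1 and 12.4 TPM at 2-3h, against 2.3, 1.81 and 5.53 TPM at 0-1h (log2 2.92, SE 0.42). *upd1*, a JAK/STAT ligand, and *run*, a Runt factor, rose by 4.39 and 4.0. Their target *Sxl*, the master gene of sex determination, was not called, at 127, 133 and 152 TPM against 119.7, 121 and 102 TPM at 0-1h (log2 0.73, SE 0.12), and its value was −0.13 on the ribosomal protein scaling. It has maternal mRNA at cycle 9, at 36.7, 56.1 and 57.9 TPM.

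Gap and head genes, the first zygotic readers of the maternal gradients, rose in 9 of 11 (81.8%, against 17.1% of all genes). *Kr* stood at 73.2, 81.0 and 79.7 TPM at 2-3h, against 5.2, 5.05 and 5.02 TPM at 0-1h (log2 4.35, SE 0.32), and at no more than 0.07 TPM at cycle 9. *kni* stood at 70.6, 76.6 and 81.3 TPM at 2-3h, against 4.34, 4.05 and 4.69 TPM at 0-1h (log2 4.54, SE 0.31). *gt*, *tll* and *hkb* rose by 4.29, 4.5 and 4.52, the last 2 being the terminal gap genes. These 5 values lay between 4.29 and 4.54, with standard errors of 0.19 to 0.32.

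The 2 members that did not rise have maternal mRNA. *cad*, a maternal and zygotic posterior factor, stood at 93.7, 68.2 and 52.1 TPM at 2-3h, against 232, 195 and 187 TPM at 0-1h (log2 −1.10, SE 0.16). *hb*, the anterior gap gene, was not called, at 132, 114.9 and 102 TPM at 2-3h against 149, 117 and 116 TPM at 0-1h (log2 0.33, SE 0.10, adjusted p = 0.0103). Its TPM groups overlapped, and its sign was negative with limma-trend (−0.13) and on the ribosomal protein scaling (−0.52). Its isoforms, given below, moved in opposite directions.

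Pair-rule genes, which draw the first periodic stripes, rose in 9 of 9 (100%, against 17.1% of all genes), with a median of 4.37. *eve* stood at 68.7, 78.5 and 85.5 TPM at 2-3h, against 4.83, 3.89 and 4.31 TPM at 0-1h (log2 4.58, SE 0.30, adjusted p = 7.14e-08). *ftz* stood at 66.9, 76.9 and 91.0 TPM at 2-3h, against 5.38, 5.47 and 4.31 TPM at 0-1h (log2 4.37, SE 0.35). *prd*, which acts late in the cascade, stood at 26.3, 34.0 and 42.3 TPM at 2-3h, against 1.93, 1.89 and 1.82 TPM at 0-1h (log2 4.62, SE 0.43). For each of these 3 genes, 2-3h replicate 1 was lowest and replicate 3 highest.

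Segment polarity and Hox genes, which act after the stripes are laid down, were lower in level at 2-3h. *en*, a homeodomain factor of the posterior compartment, stood at 8.43, 10.04 and 13.6 TPM at 2-3h, against 1.55, 1.59 and 0.84 TPM at 0-1h (log2 3.43, SE 0.34). *wg*, a Wnt ligand, stood at 9.49, 11.6 and 13.6 TPM at 2-3h, against 1.02, 0.95 and 0.81 TPM at 0-1h (log2 4.06, SE 0.32). *Ubx*, a thoracic and abdominal Hox gene, stood at 3.37, 3.80 and 4.95 TPM at 2-3h, against 0.43, 0.46 and 0.48 TPM at 0-1h (log2 3.48, SE 0.29). *abd-A* rose by 3.04 (SE 0.30). All 7 segment polarity genes and all 8 Hox genes rose, against 17.1% of all genes, at medians of 3.39 and 3.13. Some of them had few counts at 0-1h, such as *gsb-n* with 6 and *pb* with 7 over the 3 *w* libraries. At 2-3h these 2 had 45 and 41 counts over the 3 *w* libraries, so they passed the filter on low counts only with the help of *nos* libraries. These counts of rises are therefore a description. In the fit of the 6 *w* libraries 6 of the segment polarity genes and 7 of the Hox genes were called. *en*, *wg*, *Ubx* and *abd-A* were listed at 0 in every cycle 9 library. With limma-trend, in which the added 1 TPM weighs on low levels, 6 of the segment polarity genes and 6 of the Hox genes were called.

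Zygotic genes of the dorsoventral axis rose in 16 of 16 (100%, against 17.1% of all genes), with a median of 4.24. *twi* stood at 97.5, 108 and 117 TPM at 2-3h, against 7.27, 6.69 and 4.68 TPM at 0-1h (log2 4.53, SE 0.29), and *sna*, like it a mesoderm determinant, rose by 4.34 (SE 0.23). *sog*, a BMP antagonist of the lateral ectoderm, stood at 56.5, 56.9 and 66.5 TPM at 2-3h, against 4.33, 3.60 and 3.02 TPM at 0-1h (log2 4.46, SE 0.32). The dorsal BMP ligand *dpp* stood at 16.3, 16.5 and 18.6 TPM at 2-3h, against 0.98, 0.96 and 0.93 TPM at 0-1h (log2 4.52, SE 0.27). *zen*, a homeodomain factor of the amnioserosa, rose by 4.19 (SE 0.23). These 5 named genes of the ventral, lateral and dorsal domains lay between 4.19 and 4.53, while all 16 of the list ran from 3.435 to 4.526.

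None of the 3 general activators of the zygotic genome was called by edgeR. *zld*, which encodes Zelda, stood at 105, 79.2 and 77.2 TPM at 2-3h, against 115, 71.0 and 79.6 TPM at 0-1h (log2 0.40, SE 0.15, adjusted p = 0.0351), and its groups overlapped. At cycle 9 it was at 10.5, 16.8 and 29.4 TPM, below both unsorted stages. *Trl*, the GAGA factor, and *Clamp*, a GA-repeat binding protein, stood at log2 0.84 and 0.37. All 3 were negative on the ribosomal protein scaling, at −0.46, −0.02 and −0.47.

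**Figure D4:**
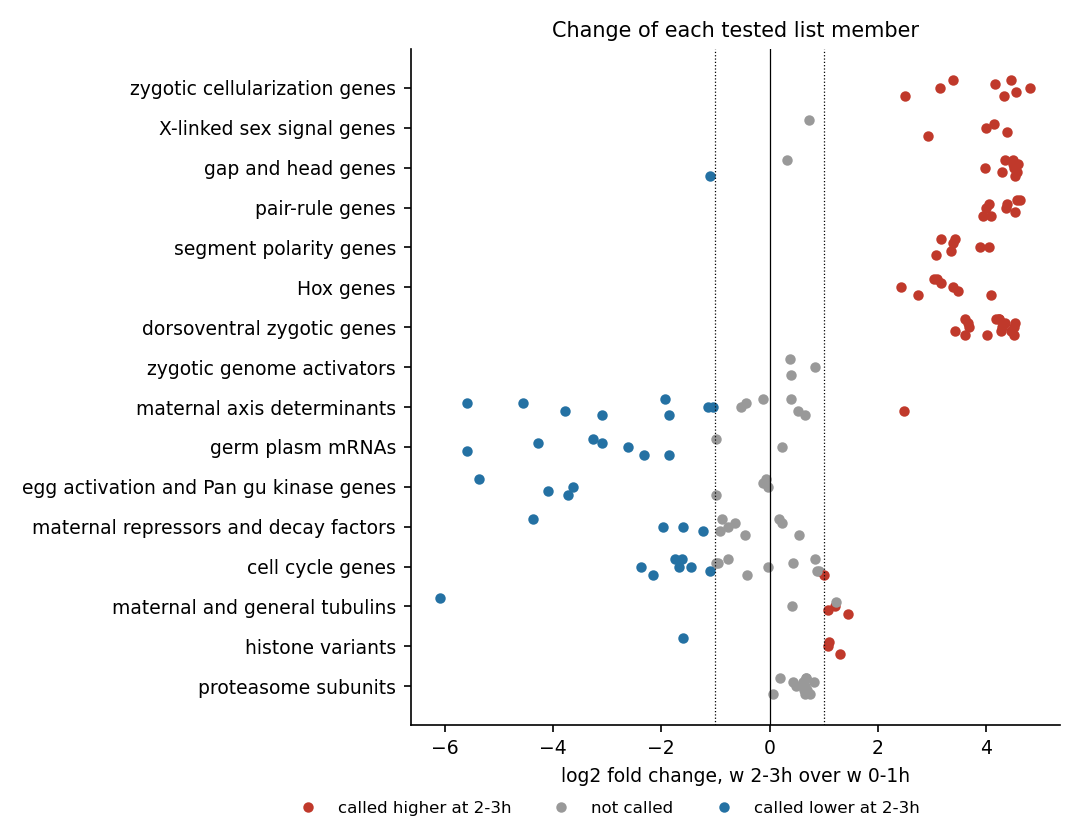
Log2 fold change of 2-3h over 0-1h embryos for each tested member of 16 lists, coloured by call, with dotted lines at 2-fold. The lists of zygotic patterning and cellularization genes lie to the right, between 2.42 and 4.82 except for *Sxl*, *hb* and *cad*, while maternal lists spread from −6.09 to beyond 0.

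The most abundant mRNAs to rise included genes with small rises and *CG13427*, which rose far. *CG13427* (FBgn0034514), which has no named function here, stood at 2932, 3618 and 4318 TPM at 2-3h, against 204, 244 and 210.1 TPM at 0-1h (log2 4.44, SE 0.34, adjusted p = 2.37e-07), and at 23.2, 11.2 and 27.9 TPM at cycle 9, which placed it among the maternal genes by the limit used here. *Df31*, a chromatin decondensation factor, stood at 3956, 4070.4 and 4389 TPM at 2-3h, against 2239, 2181 and 2001 TPM at 0-1h (log2 1.36, SE 0.09). *betaTub56D*, the general beta-tubulin, stood at 3597, 3696 and 3872 TPM at 2-3h, against 2529, 2267 and 2244 TPM at 0-1h (log2 1.08, SE 0.07). *Df31* and *betaTub56D* were no longer called on the ribosomal protein scaling or with limma-trend (log2 0.95 and 0.67). *betaTub56D* was also not called on library totals, with no filter or in the fit of the 6 *w* libraries. The same was true of it without 2-3h replicate 2 (log2 0.96) or replicate 3 (log2 0.86).

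The largest rises by fold, of genes at 10 TPM or more at 2-3h, were of another kind. *Osi6*, a gene of the Osiris family, stood at 10.5, 4.39 and 22.1 TPM at 2-3h and had no count at 0-1h, and was at least 297-fold higher with the 0-1h group set at 3 counts in all. *TwdlF*, a cuticle protein gene, stood at 30.1, 1.57 and 7.17 TPM at 2-3h, and was at least 212-fold higher on the same floor. *CG2962* and *nur* were at least 233-fold and 173-fold higher. These bounds pool the counts of each stage and take no account of the spread between libraries. The SE of the log2 fold change was 3.39 for *Osi6*, 3.38 for *TwdlF*, 3.68 for *CG2962* and 2.65 for *nur*. In *TwdlF*, *CG2962*, *nur*, *CG9083*, *CG13159* and *Lcp65Ag1*, a larval cuticle gene, 2-3h replicate 1 was highest. The cuticle marker genes were also highest in that library, and the part of older embryos in these rises was not tested. Without that library and 0-1h replicate 3, *TwdlF*, *CG2962*, *CG13159* and *Lcp65Ag1* were no longer called, and *Lcp65Ag1* was lost without any single library. *CR45033*, a non-coding RNA, differed in being even, at 10.1, 10.7 and 12.6 TPM at 2-3h with no count at 0-1h, and was at least 42.2-fold higher. *elav*, a neuronal RNA-binding protein, was the neuronal marker that rose, at 8.49, 9.73 and 12.3 TPM against 0.88, 0.67 and 1.11 TPM at 0-1h (log2 4.0, SE 0.30).

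Lists of zygotic genes drawn by another group from single embryos, as the study quotes them, were matched by gene identifier. Of 1945 genes on the zygotic list 981 were tested. Of these 690 rose (70.3%, against 17.1% of all genes) and 48 fell (4.89%, against 25.4%), with a median of 2.70. Part of that list passed the filter only through its 2-3h level. Its 166 members that were maternal at cycle 9 had no such limit, and 56 of these rose (33.7%, against 7.07% of all maternal genes) and 44 fell (26.5%, against 32.1%). Of 1085 genes listed as both maternal and zygotic 990 were tested. Of these 168 rose (17%, against 17.1% of all genes) and 425 fell (42.9%, against 25.4%), with a median of −0.80. Of the 243 genes on the zygotic list that were not maternal at cycle 9 and reached 10 TPM at 2-3h, 239 were tested, with a median of 4.01, quartiles of 3.44 and 4.38, and only 1 above 5.

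Features that the test did not use were taken by identifier from a newer annotation of the same genome (release 6.54). Genes absent at cycle 9 that rose were long, with a median span of 5468 nt against 2875 nt for all tested genes, and 10.8% had a single exon against 9.62% of all. Maternal genes that fell had a median span of 3105 nt, against 2513 nt for maternal genes with no call. Single-exon genes made up 7.15% of the maternal genes that fell and 12.5% of those that rose. The X chromosome held 20.3% of the maternal genes that fell and 12.1% of the absent genes that rose, against 17.0% of all tested genes. Its share was 16.5% of maternal genes with no call and 13.5% of absent genes with no call, so a low share was not particular to absent genes that rose. The median 3′ UTR was 262 nt in maternal genes that fell, 250 nt in maternal genes that rose, 219 nt in those with no call and 350 nt in absent genes that rose. These are descriptions of the groups, with no test.

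The transcript table showed opposite changes within genes. Of 15528 isoforms tested, 2379 were higher at 2-3h (15.3%) and 3422 lower (22%). They came from 1788 and 2432 genes, and 185 genes had an isoform called higher and another called lower. At the level of the whole gene 106 of these 185 were not called, 68 were lower and 11 higher. The 3′ UTR of the isoform that rose was longer in 111 of the 185 genes, shorter in 22 and of equal length in 52, with a median difference of 324 nt. Over all isoforms the median 3′ UTR was 517 nt for those that rose, 322.5 nt for those that fell and 331 nt for the rest. Reads shared by isoforms were divided by a model in the authors' software, so an isoform listed at 0 can be a failed estimate.

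*hb* was such a gene among the patterning genes. The isoform *hb-RB*, with a 3′ UTR of 389 nt, stood at 28.5, 21.4 and 22.2 TPM in 2-3h embryos, against 123, 91.4 and 93.2 TPM in 0-1h embryos (log2 −1.72, SE 0.15, adjusted p = 3.65e-06). *hb-RA*, with a 3′ UTR of 898 nt, stood at 104, 93.5 and 79.9 TPM at 2-3h, against 26.0, 26.0 and 23.0 TPM at 0-1h (log2 2.25, SE 0.12, adjusted p = 2.07e-07). Neither isoform overlapped between the stages, and the gene as a whole was not called.

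Abundant genes showed the same pattern with smaller shares. *Act5C*, a cytoplasmic actin, was not called as a gene, at 2817, 2828 and 2814 TPM against 2439, 2284 and 2279.9 TPM at 0-1h. Its isoform *Act5C-RD* stood at 2232, 2209 and 2234 TPM at 2-3h, against 1035, 1327 and 1489 TPM at 0-1h (log2 1.16, SE 0.23), while *Act5C-RA* was listed at 0 at 2-3h against 909, 524 and 360.3 TPM at 0-1h. *mts*, the catalytic subunit of protein phosphatase 2A, had *mts-RB* at 27.7, 25.6 and 28.6 TPM at 2-3h against 15.3, 12.8 and 13.97 TPM at 0-1h (log2 1.34, SE 0.09), and *mts-RC* listed at 0 at 2-3h against 12.8, 65.04 and 98.8 TPM. In both genes the isoform listed at 0 varied several-fold between the 0-1h replicates, while the sum over isoforms did not. Among isoforms 133 that fell were listed at 0 in all 3 libraries at 2-3h, and 176 that rose at 0-1h.

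*Mapmodulin*, *lola* and *mod(mdg4)* completed the 5 most abundant such genes together with *Act5C* and *mts*. *Mapmodulin-RB*, with a 3′ UTR of 1032 nt, stood at 75.8, 90.1 and 100.7 TPM at 2-3h against 32.4, 38.9 and 40.4 TPM at 0-1h (log2 1.63, SE 0.16). *Mapmodulin-RC*, with 172 nt, stood at 3.08, 3.22 and 4.65 TPM against 12.4, 13.8 and 15.5 TPM at 0-1h (log2 −1.54, SE 0.25). *lola* and *mod(mdg4)*, which encode families of BTB transcription factors by alternative splicing, had 20 and 22 isoforms tested. Of these 6 rose and 3 fell in *lola*, and 3 rose and 1 fell in *mod(mdg4)*. *lola-RA* stood at 13.96, 14.1 and 14.7 TPM at 2-3h, against 1.04, 1.27 and 1.59 TPM at 0-1h (log2 3.82, SE 0.20), and *mod(mdg4)-RO* at 15.2, 7.62 and 7.99 TPM against 68.1, 58.3 and 61.7 TPM (log2 −2.26, SE 0.23).

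**Figure D5:**
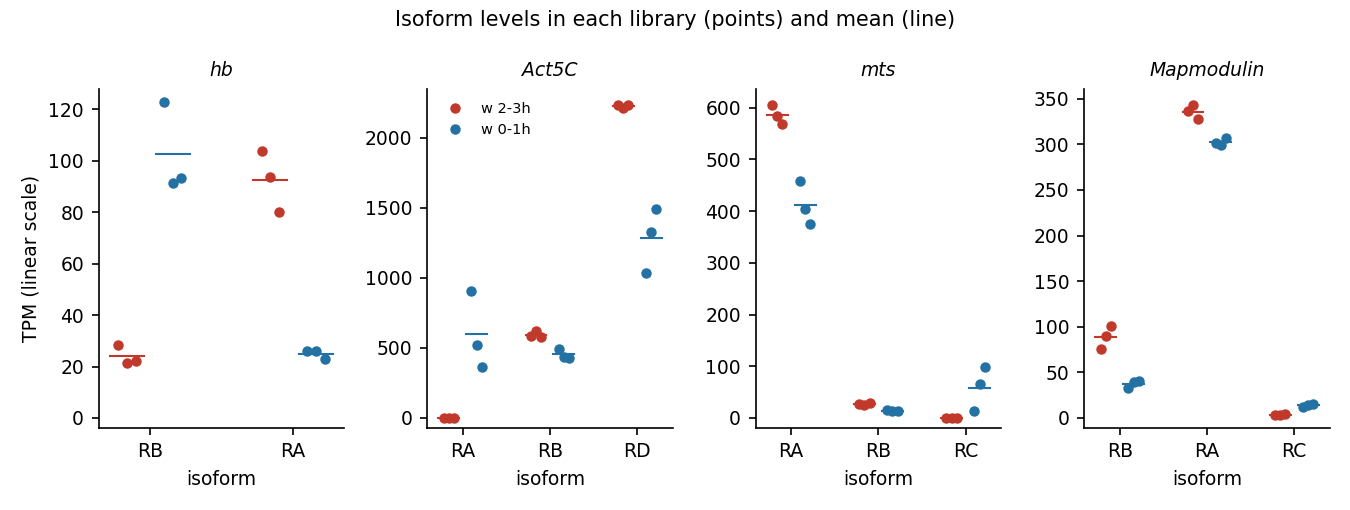
TPM on linear axes of the isoforms of *hb*, *Act5C*, *mts* and *Mapmodulin*, with a point for each library and a line at the mean of 3, 2-3h in red to the left of 0-1h in blue. *hb-RB* is lower and *hb-RA* higher at 2-3h, and *Act5C-RA* and *mts-RC* are listed at 0 in all 2-3h libraries.

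The transition was also measured in embryos of *nos* mothers, with the same collections, and the difference in stage effect between the genotypes was tested as an interaction. In *nos* embryos 1026 genes rose and 1711 fell, against 1444 and 2144 in *w* embryos, and 853 and 1654 were called in the same direction in both. A higher interaction means a smaller fall or a larger rise in *nos* than in *w*. It was higher in *nos* for 476 genes (5.64%) and lower for 410 (4.85%), with a median over all genes of −0.10. Since these tests use the same *w* libraries as the stage effect, a gene chosen for a large change in *w* is more likely to show a smaller one in *nos*. Of the 2113 maternal genes that fell in *w*, 445 had a higher interaction and 6 a lower one, with a median change of −1.49 in *nos* and −2.03 in *w*. Of the 807 absent genes that rose in *w*, 274 had a lower interaction and none a higher one, with medians of 1.79 and 3.41. The count of lower interactions was 250 without *w* 2-3h replicate 2 and 239 without replicate 3. The 0-1h *nos* libraries were uneven in muscle transcripts of later stages. *Mhc* stood at 0.12, 0.04 and 10.9 TPM in them, against 9.67, 1.72 and 9.85 TPM in *w*. *Tm2* stood at 0.38, 0.27 and 21.3 TPM, against 15.3, 5.40 and 20.3 TPM in *w*. No *nos* library was left out in turn, and the part of this unevenness in the interactions was not tested.

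The levels of 5 genes, chosen after their values were seen, are given by stage and genotype. *dhd* stood at 333, 365 and 216 TPM in 2-3h *nos* embryos, against 82.6, 46.8 and 42.3 TPM in 2-3h *w* embryos, while the 0-1h levels were 6048, 5459 and 5329 TPM in *nos* and 5939.6, 7432 and 6541 TPM in *w*. *osk* stood at 62.5, 61.3 and 36.6 TPM at 2-3h in *nos*, against 14.5, 7.68 and 4.36 TPM in *w*. Both of these maternal mRNAs were higher in *nos* at 2-3h, with no overlap between the genotypes. *Kr* stood at 55.0, 73.9 and 83.4 TPM at 2-3h in *nos*, against 73.2, 81.0 and 79.7 TPM in *w*, and at 6.55, 13.2 and 18.8 TPM at 0-1h in *nos*, against 5.2, 5.05 and 5.02 TPM in *w*. *eve* stood at 48.5, 51.8 and 70.2 TPM at 2-3h in *nos*, against 68.7, 78.5 and 85.5 TPM in *w*, and at 4.99, 11.7 and 12.4 TPM at 0-1h in *nos*, against 4.83, 3.89 and 4.31 TPM in *w*. *kni* stood at 23.9, 27.8 and 29.6 TPM at 2-3h in *nos*, against 70.6, 76.6 and 81.3 TPM in *w*, and at 2.18, 7.11 and 6.34 TPM at 0-1h in *nos*, against 4.34, 4.05 and 4.69 TPM in *w*. The 3 zygotic genes differed among themselves: *kni* was lower in *nos* at 2-3h with no overlap, *Kr* overlapped at 2-3h and was higher in *nos* at 0-1h, and *eve* overlapped at 2-3h and lay just above *w* in the lowest 0-1h *nos* library. Small differences in the age of the collections and the genotype cannot be told apart here.

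Among genes with the largest interactions, *gammaTub37C* stood at 60.2, 68.6 and 49.5 TPM at 2-3h and at 175, 140.2 and 153 TPM at 0-1h in *nos* embryos, against the fall to 3.52, 4.41 and 2.92 TPM in 2-3h *w* embryos. Its change was −1.26 in *nos* and −5.26 in *w*, with an interaction of 4.0 (SE 0.23, adjusted p = 8.01e-06 by edgeR). For *nos* itself it was 5.14, but its levels in *nos* embryos were at most 1.28 TPM. *CR45033* stood at 4.47, 4.11 and 7.18 TPM at 2-3h in *nos* and at 0.92, 1.58 and 1.68 TPM at 0-1h, with no count at 0-1h in *w*, so the size of its interaction is not fixed by the data. The same holds for *Hsp70Bc*, with 28 counts at 2-3h and none at 0-1h in *w*. Its near-identical paralog *Hsp70Aa*, from which its reads cannot be separated with certainty, stood at 0, 5.05 and 0 TPM at 2-3h in *nos* and at 30.6, 11.7 and 16.3 TPM at 0-1h, against 2.86, 8.65 and 5.6 TPM and 0, 0 and 0.69 TPM in *w*.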

How the data were processed

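Poly(A)-selected RNA of whole embryos was sequenced as paired-end reads. Per the labels, the authors aligned reads with STAR (2.5.3a) and estimated expression with RSEM (1.3.0) on BDGP6, and they deposited expected counts and TPM for genes and isoforms. Reads of mitochondrial RNA, tRNA and rRNA had been removed. Expected counts were rounded to whole numbers and tested in R (4.3.3) with edgeR's quasi-likelihood test (4.0.16, in the form used before version 4) on the 12 unsorted libraries in 4 groups, with TMM factors, after filterByExpr at a minimum count of 30 in a library and 30 in total. Genes passing an adjusted p of 0.05 and a fold of 2 were called. Total counts ran from 15253031 to 21661085 for the unsorted and from 15041034 to 22002028 for the cycle 9 libraries. Fold changes carry a prior count of 0.125, so a gene with no count in a group was given as a bound. The bound is on the pooled counts, with 3 counts in that whole group as the floor, and leaves out the spread between libraries.

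Named genes were members of 22 lists by role, the 8 largest fold changes in each direction with stages that did not overlap and at least 10 TPM, the 5 most abundant called genes in each direction, the 5 most abundant genes with opposite isoforms, and the 3 largest interactions in each direction. The members and lists were chosen with earlier results of these data known, and the Jonah and Try list after its values were seen. *hb* isoforms were named after their values were seen. Of 17714 genes 17587 were matched by identifier to a newer annotation (release 6.54, later than that of the files), so no coordinates are given. On data simulated for the stage comparison over all tested genes, nearly all changed genes were found. Few genes were changed in that simulation, as many up as down, by more than the 2-fold limit and with 1 spread for all genes. It was a check of the code and says nothing on the scaling or on the calls made here. Alternatives covered scaling (RLE, library totals, ribosomal protein genes), filter, threshold, test (DESeq2 1.42.0, limma-trend 3.58.1 on log2 TPM), libraries and the replicate number as a block.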

Additional observations from a re-analysis of the deposited data

Results flagged for a closer look

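The change from 0-1h to 2-3h differed between *nos* and *w* embryos, by edgeR's test of the interaction, for 54 of the genes named above. Of these 23 had a higher change in *nos* and 31 a lower one. Over all genes 5.64% had a higher interaction and 4.85% a lower one. Some genes were named for a large interaction or a large change in *w*, so the count among named genes is partly set by that choice. Values are the log2 change in *nos* minus that in *w*. They share their *w* libraries with the stage effect by which many of the genes were named, and groups of 3 libraries were not searched for outlying ones.

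Among mRNAs that fell in *w*, the difference was 2.37 for *dhd*, 2.53 for *CG6770*, 1.45 for *Hsp26*, 3.00 for *yl*, 2.90 for *yin* and 3.81 for *Mos*. For the unnamed and P450 genes it was 3.96 for *Cyp6a19*, 3.88 for *CG4476*, 3.08 for *CG9926*, 3.66 for *CG6927* and 3.09 for *CG4991*. Axis and germ plasm genes gave 5.14 for *nos*, 2.38 for *osk*, 1.62 for *dl*, 1.34 for *vas* and 1.07 for *piwi*. Genes of meiosis, egg activation and *osk* control gave 1.63 for *cort*, 1.86 for *gnu*, 1.21 for *mtrm* and 1.82 for *bru1*, and the maternal tubulins 2.15 for *alphaTub67C* and 4.0 for *gammaTub37C*. *CG31288*, at log2 −0.08 (SE 0.83) between the stages in *w*, gave 4.0.

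Among genes that rose in *w*, the cellularization genes gave −1.59 for *halo*, −1.51 for *Sry-alpha*, −1.64 for *Z600*, −1.38 for *bnk*, −1.15 for *trbl* and −1.22 for *dunk*. The sex signal genes gave −1.81 for *sisA*, −1.34 for *run* and −1.75 for *upd1*, and the gap genes −1.80 for *Kr*, −2.06 for *kni*, −1.65 for *gt*, −1.52 for *tll* and −1.71 for *hkb*. Segmentation and Hox genes gave −1.94 for *eve*, −1.69 for *ftz*, −1.70 for *prd*, −1.51 for *en*, −1.91 for *wg*, −1.75 for *Ubx* and −1.89 for *abd-A*. A negative value need not mean a lower 2-3h level in *nos*. *en* stood at 14.3, 15.8 and 14.7 TPM at 2-3h in *nos*, against 8.43, 10.04 and 13.6 TPM in *w*. Its 0-1h levels were 2.84, 3.53 and 6.42 TPM in *nos*, against 1.55, 1.59 and 0.84 TPM in *w*. *abd-A* was lower in *nos* at 2-3h, at 0.57, 0.28 and 0.42 TPM against 2.93, 3.60 and 4.18 TPM. Dorsoventral genes gave −1.66 for *twi*, −2.00 for *sna*, −1.55 for *sog*, −2.29 for *dpp* and −1.57 for *zen*. The remaining values were −1.71 for *CG13427*, −1.94 for *elav*, −6.35 for *CR45033*, −8.52 for *Hsp70Aa* and −7.57 for *Hsp70Bc*. *CR45033* and *Hsp70Bc* had no count at 0-1h in *w*, so that these 2 values depend on the prior count and are no bounds.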

How the results depend on the processing

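With TMM, 2144 genes were lower and 1444 higher, and under the ribosomal protein scaling 3336 and 809, with 3268 maternal genes lower, 67 maternal genes higher and 650 genes of the maternal and zygotic list lower. Limma-trend on TPM gave 713 higher, of which 115 were maternal and 481 absent at cycle 9. Library totals gave 239 maternal genes higher and 742 interactions higher in *nos*. With no filter 270 maternal and 1526 absent genes were higher, and in the fit of the 6 *w* libraries 250 maternal genes. At 4-fold, 898 genes were higher and 1092 lower, with 61 maternal genes higher, 1078 maternal genes lower and 177 of the maternal and zygotic list lower. At a log2 limit of 0.5, 2877 genes were higher, 1885 of them maternal.

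Leaving out each *w* library in turn gave 1072 to 1629 genes higher and 2134 to 2311 lower, 195 to 534 maternal genes higher and 2105 to 2277 lower, 724 to 1039 absent genes higher, 633 to 789 of the zygotic list higher and 413 to 510 of the maternal and zygotic list lower. Interactions ranged over 409 to 626 higher in *nos* and 239 to 433 lower.

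The replicate numbers are shared between stages, and whether they pair the libraries was not settled. Same-numbered libraries correlated at 0.321, −0.170 and 0.137 in their deviations from the stage means. Replicates 1 and 3 at 2-3h correlated best with the 0-1h library of the same number, and replicate 2 with 0-1h replicate 3 (0.332). Deviations from a mean of 3 libraries depend on each other, so these values cannot decide on pairing. With the number as a replicate block 1584 genes were higher and 2146 lower, 2391 isoforms higher and 3411 lower, and 484 interactions higher in *nos* and 453 lower. The block moved no such count by over 1.5 times.

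Of 105 named genes 89 were called, and 75 of the 105 kept their side of the threshold under each alternative that could be fitted for them. Sign changes came in 13 of the named genes, none of them called for the stage effect in the reported fit. *CG31288* gave 0.031 (without 0-1h replicate 3 and 2-3h replicate 1, a choice made after seeing the data). On the ribosomal protein scaling *hb* gave −0.52, *Sxl* −0.13, *zld* −0.46, *Trl* −0.016, *Clamp* −0.47, *pum* −0.61, *Cdk1* −0.005, *Act5C* −0.10, *lola* −0.13, *mod(mdg4)* −0.27, *mts* −0.036 and *Mapmodulin* −0.14. Limma-trend gave −0.13 for *hb*, −0.004 for *zld*, −0.053 for *Clamp* and −0.19 for *pum*. The searches for motifs in promoters and 3′ UTRs were not run, since no genome sequence was used. Only 1499 of 10552 genes absent at cycle 9 passed the filter, and whether the rest were not expressed or too low for this depth was not tested.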
